A study of Mus musculus with 32 samples.

Results

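The H3K9me3 peaks of Morc1 knockout male germ cells were compared by position between the embryonic stages E13.5 and E16.5. The autosomal lists of these groups held 125623 of the 581860 autosomal peaks in the 8 lists of the series, 55136 at E13.5 and 70487 at E16.5. An E13.5 peak that had at least 1 bp in common with an E16.5 peak was called kept, and any other E13.5 peak was called gone. An E16.5 peak with no E13.5 peak under it was called new. The study mapped H3K9me3 by ChIP-seq in germ cells from testes at these stages and after birth at P0 and P3, named by embryonic (E) or postnatal (P) day. Knockouts (KO) were Morc1 (-/-), the other group at each stage was Morc1 (+/-) (het), and the labels used here name no wild type group. All of these mice carried the Mvh-Venus transgene, a germ cell reporter, so the reporter was common to KO and het. Each group held 2 H3K9me3 samples, 4 in the KO groups at E13.5 and E16.5 together, and 1 deposited peak list.

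The labels do not say whether the samples of a group came from separate animals. Since a list pools its group, no value below carries an error between replicates, and p-values are not given. Every difference between KO and het is a difference between lists and was not tested. The lists hold positions only, so neither the germ cell identity nor the loss of Morc1 RNA could be checked here. Peaks covered 1.56 kb of the Morc1 gene body in the KO E13.5 list, 0 kb at E16.5 and P0, and 1.00 kb at P3. The het lists covered 2.002, 1.62, 3.47 and 3.21 kb of it in the same order. Mvh is another name of Ddx4 in the RefSeq gene table, and the labels do not say what sequence the transgene carries. Reads from any Ddx4 sequence in the transgene and reads from the Ddx4 locus itself therefore cannot be told apart.

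H3K9me3 marks constitutive heterochromatin and is laid down by SETDB1 and the SUV39H enzymes, which silence repeats, some gene clusters and some germline promoters. Male germ cells stop dividing as gonocytes in the fetal testis and regain DNA methylation there, while the piRNA pathway directs silencing of transposons. MORC1 is a nuclear ATPase of germ cells that is needed for transposon silencing and for male fertility. Many germline genes have CpG-rich promoters that are silenced in somatic tissues and active in germ cells.

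7 promoters are shown because they span the patterns that the results turn on: CpG-rich promoters that lay in a peak at E13.5 and outside every peak at E16.5 in KO, and CpG-poor receptor promoters with a new peak. They were chosen after their values were seen. Each is the 250 bases before the annotated start, read 5′ to 3′ on the gene's strand from RefSeq on GRCm38.p6, with CpG dinucleotides in capitals. Ddx4 (chr13:112652311-112652560, minus strand) and Mael (chr1:166238745-166238994, minus strand) encode piRNA pathway proteins, and so does Tdrd1 (chr19:56825959-56826208, plus strand). Sycp3 (chr10:88459337-88459586, plus strand) encodes a component of the meiotic chromosome axis and Hoxa5 (chr6:52204588-52204837, minus strand) a patterning factor. Olfr722 (chr14:49901942-49902191, minus strand) encodes an olfactory receptor and Vmn2r65 (chr7:84964010-84964259, minus strand) a vomeronasal receptor.
Ddx4: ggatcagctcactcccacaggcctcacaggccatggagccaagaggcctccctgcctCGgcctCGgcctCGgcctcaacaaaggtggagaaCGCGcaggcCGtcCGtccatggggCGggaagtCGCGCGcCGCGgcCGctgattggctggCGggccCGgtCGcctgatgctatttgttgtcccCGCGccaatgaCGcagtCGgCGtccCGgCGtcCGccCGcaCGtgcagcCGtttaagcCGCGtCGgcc
Mael: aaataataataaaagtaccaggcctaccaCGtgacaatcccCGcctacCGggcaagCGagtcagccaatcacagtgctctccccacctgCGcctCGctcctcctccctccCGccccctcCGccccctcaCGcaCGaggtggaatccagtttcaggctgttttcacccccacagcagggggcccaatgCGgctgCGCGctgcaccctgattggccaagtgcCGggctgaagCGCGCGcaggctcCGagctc
Tdrd1: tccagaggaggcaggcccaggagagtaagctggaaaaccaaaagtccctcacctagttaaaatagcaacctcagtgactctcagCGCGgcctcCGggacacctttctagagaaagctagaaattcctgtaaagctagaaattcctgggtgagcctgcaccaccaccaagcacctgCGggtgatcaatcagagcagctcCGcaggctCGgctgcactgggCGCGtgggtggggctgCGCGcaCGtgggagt
Sycp3: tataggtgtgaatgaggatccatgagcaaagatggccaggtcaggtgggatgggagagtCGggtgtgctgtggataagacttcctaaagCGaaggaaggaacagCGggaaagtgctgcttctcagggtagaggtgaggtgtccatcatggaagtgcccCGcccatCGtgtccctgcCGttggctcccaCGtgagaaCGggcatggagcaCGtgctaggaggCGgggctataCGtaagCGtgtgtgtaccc
Hoxa5: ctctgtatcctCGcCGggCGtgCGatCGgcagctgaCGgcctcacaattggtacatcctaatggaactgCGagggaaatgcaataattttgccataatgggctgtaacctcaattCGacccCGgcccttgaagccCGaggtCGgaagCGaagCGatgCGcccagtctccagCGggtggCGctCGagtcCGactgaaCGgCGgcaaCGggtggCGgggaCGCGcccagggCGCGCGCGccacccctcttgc
Olfr722: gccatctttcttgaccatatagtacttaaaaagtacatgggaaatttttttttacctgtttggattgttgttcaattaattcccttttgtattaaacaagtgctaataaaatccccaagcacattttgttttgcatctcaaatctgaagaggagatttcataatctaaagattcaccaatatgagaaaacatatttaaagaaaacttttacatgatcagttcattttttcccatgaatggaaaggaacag
Vmn2r65: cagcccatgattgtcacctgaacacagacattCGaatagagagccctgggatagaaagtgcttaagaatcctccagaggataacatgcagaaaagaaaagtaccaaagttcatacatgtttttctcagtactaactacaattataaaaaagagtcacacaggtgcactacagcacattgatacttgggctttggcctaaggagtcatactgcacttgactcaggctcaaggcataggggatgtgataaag
The 250 bases held 31 CpGs at Ddx4, 18 at Mael, 11 at Tdrd1, 12 at Sycp3 and 28 at Hoxa5. They held 0 at Olfr722 and 1 at Vmn2r65. The letters CACGTG occurred before the start of Ddx4, Mael, Tdrd1 and Sycp3 and not before that of the other 3 genes. A promoter window of 300 bp, these bases and the 50 after the start, lay wholly inside a KO E13.5 peak at the first 5 genes and outside every KO E16.5 peak. At Olfr722 and Vmn2r65 it lay outside every KO E13.5 peak and wholly inside a KO E16.5 peak.

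From E13.5 to E16.5 the mark gained far more length in KO cells than it left behind. Peaks covered 182 Mb of the autosomes at E13.5 and 269 Mb at E16.5, which is 1.48 times as much, while the het lists rose from 159.7 to 293 Mb, or 1.83 times. Of the E13.5 length, 152 Mb was still covered at E16.5, which is 83.7% of it. A further 117 Mb was covered at E16.5 only, and 29.7 Mb was covered at E13.5 only. Of the E16.5-only length 66.3 Mb, or 56.8%, lay in peaks that touched an E13.5 peak, and 50.3 Mb lay in new peaks. This order depended on short peaks. With peaks of at least 2 kb, 42.4 of 105 Mb lay in peaks that touched an E13.5 peak, so most then lay in new peaks. Of the length left behind, 14.6 Mb was in gone peaks and 15.2 Mb was trimmed from kept ones. The E16.5-only length was 3.92 times the E13.5-only length in KO and 8.34 times in het.

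**Figure D1:**
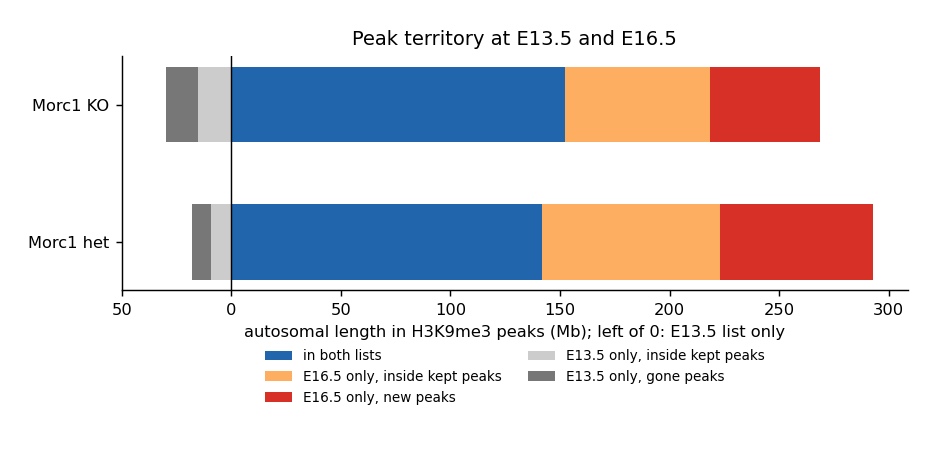
Autosomal length in Mb by when it was covered, for KO and het, with length covered at E13.5 only drawn to the left of 0 and length covered at both stages, inside kept peaks and in new peaks drawn to the right. KO kept 152 Mb, gained 117 Mb and left 29.7 Mb behind; the corresponding het values were 141.6, 151 and 18.1 Mb.

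Of the KO E13.5 peaks 45236 were kept (82.0%, 95% Wilson interval 81.7 to 82.4) and 9900 were gone (17.96%, 17.6 to 18.3). Of the E16.5 peaks 43565 were kept (61.8%) and 26922 were new (38.2%, 37.8 to 38.6). These intervals cover counting error only, treat neighbouring peaks as independent and leave read depth, which is unknown, aside. In het, gone peaks were 13.3% and new peaks 45.8%, so the KO lists showed more peaks gone and fewer new. That order was the same on each of 19 autosomes: the KO share of gone peaks was above that of het on 19, and the KO share of new peaks was above it on 0. The autosomes come from the same 4 pooled lists, so they are not replicates of the difference. When all 4 lists were reduced to the same number of longest peaks, the share of gone peaks was 24.7% in KO and 23.8% in het, and the share of new peaks 28.1% and 30.2%. The differences between genotypes in these shares were thus smaller at equal peak numbers.

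The rule turns on a single shared base, and few peaks lay near that edge in base pairs. The number of new peaks did depend on the overlap asked for. With at least 50% of the peak covered, 37255 KO peaks were new (52.9%, against 62.7% in het). By the same measure 11688 were gone (21.2%, against 15.5% in het). Among kept E16.5 peaks the smallest overlap was 2 bp, and 53 kept peaks shared less than 100 bp. The nearest new peak and the nearest gone peak each lay 5 bp from a peak of the other stage. Of the new peaks 391 lay within 1 kb of an E13.5 peak and 4868 (18.1%) within 5 kb. Of the gone peaks 400 lay within 1 kb of an E16.5 peak. The median distances were 13731.5 bp for new and 13560.5 bp for gone peaks.

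Kept peaks formed 42402 blocks, a block being a chain of E13.5 and E16.5 peaks that overlap. In 39094 of them (92.2%) a single peak of each stage met. Joining was more frequent than splitting: in 2305 blocks (5.44%) several E13.5 peaks lay under fewer E16.5 peaks, and in 912 (2.15%) the reverse held. The share of split blocks was 1.27% in het. In joined blocks the median covered length rose from 6479 to 11879 bp. Of all kept blocks 30760 (72.5%, 72.1 to 73.0) were longer at E16.5, 10479 (24.7%) were shorter and 1163 were equal. In het 80.6% were longer and 16.9% shorter. Blocks at least 2 times as long made up 20.7% in KO and 28.4% in het.

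The shift of a typical peak was modest. Where a single peak of each stage met, the median length rose from 2121 to 3182 bp, and the median change was 638 bp (quartiles 0 and 1702.75 bp), against 952 bp in het. Both ends lay farther out at E16.5 in 38.9% of these peaks and both lay farther in in 12.3%, against 47.1% and 7.79% in het. The ends moved by a similar amount, with medians of 152 and 176 bp, so lengthening was similar at both ends.

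Lengthening depended on the size of the block. Among blocks with a mean length under 2 kb 60.5% were longer at E16.5, and from 2 to 5 kb the share was 80.5%, with a median E16.5 to E13.5 ratio of 1.45. It was 76.7% from 5 to 10 kb and 62.1% from 10 to 30 kb. Among the 414 KO blocks of 30 kb or more, 164 were longer (39.6%, 35.0 to 44.4) and 250 shorter, with a median ratio of 0.995. In het, 245 of 396 such blocks were longer (61.9%, 57.0 to 66.5). The widest domains were thus the only size class of the 5 in which KO blocks were shorter more often than longer.

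**Figure D2:**
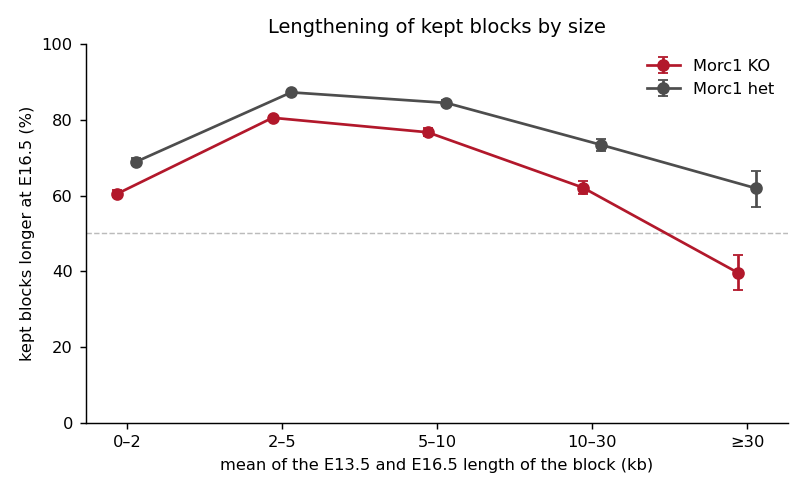
Percent of kept blocks that were longer at E16.5 than at E13.5, by the block's mean covered length over both stages, for KO and het, with 95% Wilson intervals as bars and a dashed line at 50%. The KO share rises to 80.5% at 2 to 5 kb and falls to 39.6% at 30 kb or more, where the het share is 61.9%.

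Of the 5 blocks that grew most, 4 overlapped no protein-coding gene and 1 lay in a receptor cluster. At chr10:129455070-129506092, across the olfactory receptor genes from Olfr787 to Olfr790, covered length rose from 4.70 to 51.02 kb in KO and from 5.26 to 47.0 kb in het. A block at chr16:68547973-68592978 went from 13.3 to 44.8 kb and another at chr1:103617050-103653764 from 8.82 to 36.7 kb. A peak of 1.00 kb at chr16:82514347-82542773 became 28.4 kb, and the het lists held 0 and 28.2 kb there. Growth at the receptor cluster was of like size in KO and het.

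The block that shrank most covered Ddx4, which encodes the germ cell RNA helicase VASA, and its neighbour Slc38a9, which encodes a lysosomal arginine transporter. At chr13:112628309-112711512 it went from 83.2 kb in 1 peak at E13.5 to 18.5 kb in 10 peaks at E16.5. In the later KO lists 27.0 kb (P0) and 57.3 kb (P3) of the same interval was covered. In het the values in order of age were 80.8, 82.8, 25.1 and 83.2 kb. Low coverage was therefore seen at E16.5 and P0 in KO and at P0 in het. The caution on the Mvh-Venus transgene applies to this domain, and its part in the result was not tested. Within the gene body of Ddx4 (gene ID 13206, chr13:112598333-112652633) coverage fell from 47.5 to 6.79 kb in KO, and the later KO lists held 12.2 and 27.5 kb. The het values were 50.03, 49.97, 11.7 and 50.2 kb. Slc38a9 went from 55.3 to 13.55 kb in KO and from 55.5 to 57.1 kb in het.

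**Figure D3:**
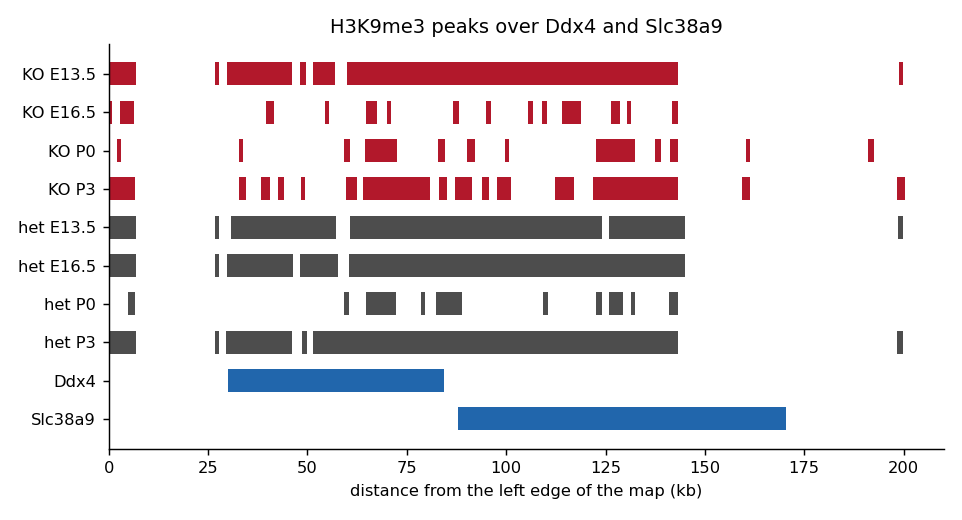
H3K9me3 peaks of the 8 lists as bars over a 200.42 kb map of the Ddx4 and Slc38a9 domain on chromosome 13, with the distance from the left edge of the map in kb on the horizontal axis and the 2 gene bodies drawn below. The long peaks of the KO E13.5 list are replaced by short ones at E16.5, while the het E16.5 list still covers 82.8 kb of the interval of the long KO E13.5 peak.

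Among the other 4 blocks that shrank most, 3 overlapped protein-coding genes. At chr7:23381481-23472007, which holds Nlrp5, an oocyte gene of the subcortical maternal complex, covered length fell from 90.5 to 69.5 kb in KO and was 80.6 and 80.4 kb in het. At chr7:59918650-60050772, in the imprinted Snrpn and Snurf domain, it fell from 132 to 113 kb in KO and from 130.4 to 121 kb in het. A block at chr8:19545312-19597853 went from 52.5 to 34.9 kb in KO and from 27.9 to 37.5 kb in het. At chr19:45224757-45244143, over the homeobox gene Lbx1, it went from 19.4 to 3.11 kb in KO and from 11.7 to 3.30 kb in het. The Lbx1 block thus shrank in both genotypes.

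New and gone peaks lay in different places. Both were shorter than kept peaks: the median was 1418.5 bp for new and 1253 bp for gone peaks, against 3378 bp for kept E16.5 and 2207 bp for kept E13.5 peaks. The midpoint of 46.5% of gone peaks (45.5 to 47.5) lay in a protein-coding gene body, against 26.8% of new peaks (26.2 to 27.3) and 23.7% of kept E13.5 peaks. Of the gone peaks 11.3% reached within 1 kb of an end of a gene, against 2.40% of the new ones. Gone peaks reached a promoter window in 570 cases (5.76%, 5.32 to 6.23) and new peaks in 279 (1.04%). At the other extreme, 15.6% of new and 2.72% of gone peaks lay over 500 kb from any protein-coding gene. The het lists gave the same order, with 48.3% of gone and 26.6% of new peaks in gene bodies.

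In gene bodies the order was the same among peaks of the most common length and among long peaks. The most common length in both lists was 1001 bp, and such peaks were 48.7% of the gone and 32.3% of the new. Among them 43.3% of gone and 28.5% of new peaks lay in gene bodies. Among peaks of 3 kb or more, 55.7% of gone peaks (51.2 to 60.1) and 16.6% of new peaks (15.4 to 17.9) did. In the same set, 88 of 474 gone peaks (18.6%) and 63 of 3430 new peaks (1.84%) reached a promoter window.

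Most new peaks were also called in het at the same stage and were called again after birth. Of the new KO peaks 85.7% met a het E16.5 peak and 9.06% a het E13.5 peak. At P0 73.4% and at P3 62.2% of them met a KO peak, and 58.6% did so at both stages. Of new peaks of 3 kb or more, 99.1% were called in het at E16.5 and 89.0% in KO at P0. New KO peaks that neither het embryonic list held were 13.6%.

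The gone peaks showed less in common with het and seldom came back. Of these 43.2% met a het E13.5 peak and 16.2% a het E16.5 peak, and 49.0% met neither. Of the kept E13.5 peaks, by comparison, 86.2% met a het E13.5 peak, and of those of 3 kb or more 98.8% did. Kept peaks are by the rule called in another list and were longer than gone peaks, so this comparison is not independent of the rule. Only 20.6% of gone peaks met a KO peak at P0 and 16.9% at P3, and 73.2% met none at either stage. Among gone peaks of 3 kb or more the share called in het at E13.5 was 79.5% and at E16.5 19.8%, so the long ones were mostly called, and mostly gone, in both genotypes.

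The 5 longest new peaks were 15.5 to 18.9 kb long. The longest, at chr1:29132784-29151637, held 14.8 kb of peak in het at E16.5 and 4.53 kb in KO at P0. The next lay between Pcdh20 and Pcdh9 (chr14:90313891-90331941) and another between Ncam2 and Mrpl39 (chr16:83466245-83483004). A 16 kb peak at chr9:82070325-82086324 lay inside Mei4, a gene needed for meiotic DNA breaks. In the interval of that peak 15.1 kb was covered in het at E16.5 and 11.8 kb in KO at P0. All 5 intervals held 14.0 to 16.52 kb of peak in het at E16.5.

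The 2 longest gone peaks, of 39.8 and 38.1 kb, lay side by side between Gm6098 and Zbbx (chr3:74682707-74722482 and chr3:74642958-74681056). Apart from the KO lists of these stages, the other 6 lists covered 37.3 to 39.7 kb of the first and 29.3 to 37.6 kb of the second. The next, of 16.9 kb between Dok6 and Tmx3 (chr18:89929152-89946050), held 12.8 to 16.6 kb in those 6 lists. The KO E16.5 list alone of the 8 held no peak over these 3 intervals. The gone peak at chr11:119034599-119048561 was 14.0 kb long and lay over Cbx8, which encodes a Polycomb protein. In het 1.00 kb of that interval was covered at E13.5, and the other 6 lists covered 0 kb. A 13.53 kb gone peak at chr17:72406820-72420353 lay in Alk, a receptor tyrosine kinase gene.

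Gene bodies gained coverage more often than they lost it. Of 20560 autosomal protein-coding genes 3251 (15.8%) had at least 1 kb more peak at E16.5 than at E13.5, and 2456 (11.9%) had at least 1 kb less. In het 4035 (19.6%) gained and 1551 (7.54%) lost. With equal numbers of the longest peaks from each KO list this order turned, with 2514 gained and 2981 lost. The directions mostly went together in KO and het: 2828 genes gained and 1085 lost in both, while 254 lost in KO and gained in het and 41 did the reverse. A further 1117 genes lost at least 1 kb in KO and changed by less in het.

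Calls of gain followed gene length, and a change of 1 kb is reached more easily in a longer body. Of 216 genes of 500 kb or more 195 gained and 13 lost, whereas of 11012 genes under 20 kb 523 gained and 772 lost. The median gene length was 73.7 kb among gained, 37.7 kb among lost and 17.6 kb among all genes. Gained genes were thus the longest of these sets, and lost genes were also longer than all genes. Summed covered length, which needs no such cut, went from 8275 to 14152 kb in KO over genes of 500 kb or more. Over genes under 20 kb it went from 4024 to 3721 kb in KO and from 3142 to 3914 kb in het.

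The 6 largest rises were all in long genes. Naaladl2 (gene ID 635702, chr3:23798103-25144149), which encodes a peptidase-like membrane protein, went from 146 kb covered at E13.5 to 318 kb at E16.5 in KO, with 34 new peaks. It was at 271 kb in KO at P0 and 228 kb at P3, and in het it went from 148 to 377 kb. Fstl5, a follistatin-like gene, went from 175 to 339 kb, and the receptor phosphatase gene Ptprd from 78.1 to 216 kb. The RNA-binding protein gene Khdrbs2 went from 97.5 to 235 kb, Dpp10, which encodes a potassium channel subunit, from 237 to 354 kb, and the glycosyltransferase gene Galntl6 from 54.9 to 167 kb. Cdh12, a cadherin gene, gained 32 new peaks and went from 40.2 to 149.8 kb. Each of these 7 rose in het too.

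**Figure D4:**
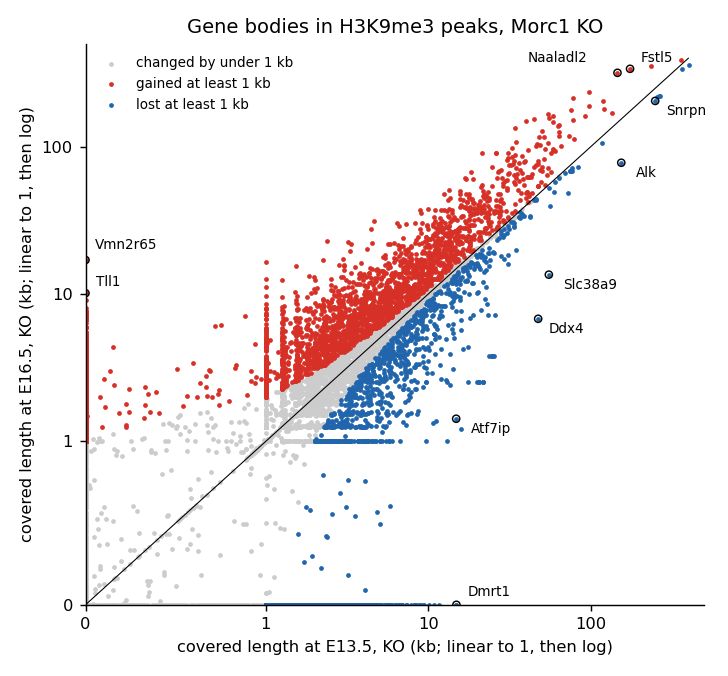
Covered length per autosomal protein-coding gene body in KO at E13.5 and at E16.5, in kb on axes that are linear to 1 and logarithmic above, with 10 named genes circled. Naaladl2 and Fstl5 lie above the diagonal, Alk, Snrpn, Slc38a9, Ddx4 and Atf7ip below it, Dmrt1 at 0 at E16.5, and Tll1 and Vmn2r65 at 0 at E13.5.

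Genes of adhesion and synapse formation, many of them very long, formed the list that gained most uniformly. Of its 63 members 58 gained, 3 lost and the rest changed by less than 1 kb, with a median of 29.0 kb against 0 for all genes. In het 60 gained and 2 lost, with a median of 37.3 kb. In total these genes went from 2581 to 5095 kb in KO. The 92.1% that gained compares with 90.3% of all genes of 500 kb or more. Csmd1, a long complement regulator gene, held 18 gone and 17 new peaks and went from 363 to 387 kb, and in het from 342 to 551 kb.

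4 genes had no peak at E13.5 and the most at E16.5. Vmn2r65 went from 0 to 17.0 kb, the metalloprotease gene Tll1 from 0 to 10.1 kb, the blood and endothelial factor gene Fli1 from 0 to 9.14 kb and the GABA receptor gene Gabra2 from 0 to 7.998 kb. Fli1 was covered over 17.98 kb at P0 and 15.2 kb at P3 in KO. In het Fli1 went from 0 to 9.20 kb, Tll1 from 0 to 7.10 kb and Gabra2 from 0 to 19.7 kb, while Vmn2r65 started at 2.42 kb and reached 11.6 kb.

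Chemosensory receptor genes differed by family. Beside 15.8% gained and 11.9% lost over all genes, Vmn2r genes, the type 2 vomeronasal receptors, had 38 gained and 18 lost of 122, and Vmn1r genes 6 and 2 of 229. Olfactory receptor genes had 55 gained and 5 lost of 1103. Olfr and Vmn1r bodies were thus called gained in a smaller share than all genes. The call needs a change of 1 kb, which a body as short as that of Olfr788 (0.936 kb) cannot reach. Summed covered length in KO rose from 402 to 616 kb over Olfr bodies and from 89.2 to 98.9 kb over Vmn1r bodies. Over all genes it rose from 39942 to 52129 kb. Of 938 olfactory receptor promoters 159 were marked at E13.5 and 264 at E16.5, with 110 gained and 5 lost, beside 1.68% gained over all promoters. In het the numbers were 154 and 281. Olfr165 went from 4.81 to 14.9 kb and Vmn2r18 from 3.31 to 19.7 kb, while Vmn2r60 went from 59.6 to 49.1 kb. These genes have close copies, among which reads cannot always be placed.

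The largest fall in a gene body was in Alk (gene ID 11682, chr17:71868988-72604702), which went from 155 to 78.0 kb in KO with 17 gone and 5 new peaks. It was covered over 135 kb in KO at P0 and 156 kb at P3. The het lists covered 66.9, 102, 87.8 and 105 kb in order of age, so KO was above het at E13.5 and below it at E16.5. Snrpn went from 249.99 to 205 kb in KO and from 223 to 212 kb in het. Skint5, of a family of thymic and skin immune genes, went from 404 to 360.1 kb in KO and from 384 to 363 kb in het. Gm37013 and Gm38666, gene models that overlap each other, went from 267 to 223 kb and from 263 to 222 kb in KO. In het they went from 280 to 225 kb and from 274 to 221 kb. Both models span clustered protocadherin genes such as Pcdhga1, so their fall and that of the protocadherin genes below share sequence.

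4 genes went from the most coverage to none. Dmrt1 (gene ID 50796, chr19:25505618-25604328), which encodes a factor that holds testis identity and controls germ cell entry into meiosis, went from 14.9 to 0 kb in KO and from 14.7 to 0 kb in het. It was at 0 kb at P0 in both, and at P3 at 4.12 kb in KO and 9.74 kb in het. Hoxa3 went from 14.8 to 0 kb in KO and from 3.82 to 0 kb in het. Smg1, which encodes a kinase of nonsense-mediated decay, went from 11.6 to 0 kb and from 5.75 to 0 kb in het. The limb and pituitary factor gene Pitx1 went from 10.8 to 0 kb in KO and from 1.00 to 0 kb in het.

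Developmental transcription factor genes lost the mark as a group. The list, drawn up after values were seen, held 165 members of homeobox, Fox, Gata, Pax and T-box families, among them Hox, Lhx, Nkx and Dlx genes, of which 106 lost at least 1 kb and 6 gained, with a median of -1.49 kb. The background over all genes was 11.9% lost. Their covered length fell from 468 to 101 kb in KO and from 188 to 115 kb in het, where 56 lost and 9 gained. KO E13.5 was thus the list with the most coverage of these genes of the 4 embryonic lists. Of their promoters 36 of 109 were marked in KO at E13.5 and 1 at E16.5, with 35 lost, beside 2.81% lost over all promoters. In het 18 and 1 were marked, with 17 lost, beside 1.43%.

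Among the 39 Hox genes, which are part of that list and set position along the body axis, 27 lost and 0 gained, and covered length went from 82.1 to 1.97 kb in KO and from 21.4 to 1.26 kb in het. The annotated body of Hoxa3 (chr6:52169059-52213067) takes in the promoter of Hoxa5, so some Hox bodies overlap. Their counts and summed lengths, here and within the longer list, are therefore not independent. Hoxb3 went from 9.43 to 0 kb. Elsewhere in the list, Lmx1b, a limb and midbrain factor gene, went from 17.6 to 4.38 kb in KO and from 3.69 to 4.67 kb in het. The muscle stem cell factor gene Pax7 went from 13.04 to 1.00 kb in KO and from 4.19 to 1.57 kb in het. The T-cell factor gene Gata3 went from 8.84 to 0 kb in KO and from 1.00 to 0 kb in het. The exceptions included Foxp2, a long gene, which went from 1.00 to 16.6 kb in KO and from 4.19 to 22.1 kb in het. In these examples the KO value at E13.5 exceeded that of het in all but Foxp2. Wnt ligand genes, also listed after values were seen, had 9 of 19 lost and 1 gained, beside 11.9% and 15.8% of all genes, and went from 27.1 to 10.3 kb. The gain, at Wnt7a, became -0.044 kb with equal numbers of peaks.

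Genes of the piRNA pathway, which silences transposons in gonocytes, were listed with other genome defence genes, such as Dnmt3a and Nanos2. Of the 24 list members 7 lost and 1 gained in KO, or 6 lost without Ddx4, and 4 lost and 8 gained in het. Over all genes 11.9% lost and 15.8% gained in KO, and 7.54% and 19.6% in het. Among the others, Mael went from 5.76 to 3.74 kb, Tdrd9 from 8.92 to 6.63 kb and Tdrd12 from 4.37 to 1.96 kb in KO. Tdrd6 went from 3.41 to 1.58 kb in KO and from 0 to 4.31 kb in het. The DNA methyltransferase gene Dnmt3a went from 2.32 to 0 kb in KO. Asz1, whose product anchors piRNA factors at mitochondria, went from 3.83 to 5.77 kb, a change that became -0.322 kb with equal numbers of peaks. At promoters, 8 of 20 were marked in KO at E13.5 and 0 at E16.5, beside 2.81% of all promoters that lost the mark: Asz1, Ddx4, Gtsf1, Henmt1, Mael, Mov10l1, Tdrd1 and Tdrd9. Of these, Asz1, Ddx4, Henmt1 and Mael were marked in het at E13.5, and Ddx4 still was in het at E16.5. Ddx4 was also the only member of the 8 that was marked again in KO at P0 and P3.

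Meiosis genes had 10 lost and 3 gained of 30 in KO, beside 11.9% and 15.8% of all genes, and 4 lost and 3 gained in het. Dmc1, the meiotic recombinase gene, went from 4.11 to 0 kb in KO and from 1.55 to 5.76 kb in het. Rec114, needed for meiotic breaks, went from 9.94 to 4.40 kb in KO and from 6.25 to 6.64 kb in het. Sycp1, whose product forms the transverse filaments of the synaptonemal complex, went from 6.97 to 2.27 kb in KO and from 6.61 to 3.67 kb in het. Mei4 stood apart, going from 18.5 to 67.2 kb in KO and from 15.2 to 72.1 kb in het. With it the summed length of the list went up, from 58.0 to 83.6 kb in KO. Promoters of Bhmg1 (Meiosin), Sycp1, Sycp2, Sycp3, Tex101 and Tex12 were marked in KO at E13.5, 6 of 27, and 0 at E16.5, beside the 2.81% lost over all promoters. All of these but Sycp3 were also marked in het at E13.5, and only Bhmg1 was marked again in KO, at P3.

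Other lists moved less. Over all genes 15.8% gained and 11.9% lost. Of 20 pluripotency genes 3 lost and 0 gained, in KO and in het alike. Esrrb, a nuclear receptor gene of naive pluripotent cells, went from 8.33 to 0 kb in KO and from 4.01 to 1.61 kb in het. Nr5a2 went from 7.61 to 4.12 kb and Prdm1, which specifies germ cells, from 2.38 to 0 kb. Of 26 genes of the H3K9 methylation machinery 4 gained and 4 lost, so the counts had no direction. Their summed covered length fell from 38.6 to 27.8 kb in KO and from 34.3 to 30.4 kb in het. The largest KO fall in this list was in Atf7ip. Atf7ip, the partner of SETDB1, went from 14.9 to 1.42 kb in KO and from 8.77 to 1.30 kb in het. Tasor, a subunit of the HUSH silencing complex, went from 4.26 to 1.00 kb in KO and from 4.29 to 1.00 kb in het, and both promoters lost the mark in both genotypes. Pphln1, another HUSH subunit gene, went from 5.69 to 9.10 kb.

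Imprinted genes, which are expressed from the copy of a single parent, had more members that lost than gained. Of 35 members 17 lost and 3 gained in KO, beside 11.9% and 15.8% of all genes, and 11 lost and 6 gained in het. Some of them, such as Snrpn and Snurf, overlap. Their summed length went from 448 to 339 kb in KO and from 394 to 360.1 kb in het. Kcnq1 went from 72.5 to 48.5 kb in KO and from 63.9 to 50.5 kb in het. Usp29 went from 23.3 to 7.18 kb in KO and from 14.4 to 5.97 kb in het. Peg3 and Mest, both expressed from the paternal copy, went from 2.74 and 2.63 kb to 0 kb in KO. Grb10 went the other way, from 8.87 to 11.9 kb, and Peg10 from 6.54 to 8.75 kb. Promoters were marked in KO at 9 of 27 members at E13.5 and 3 at E16.5, with 6 lost, beside 2.81% lost over all promoters. In het 7 and 3 were marked, with 4 lost, beside 1.43%. In KO the members were as follows. Igf2, Inpp5f and Snrpn kept the mark, and Dio3, Gnas, Mest, Mkrn3, Ndn and Snurf lost it.

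Clustered protocadherin genes, which give neurons their surface identity, had 30 lost and 7 gained of 57 in KO, beside 11.9% and 15.8% of all genes. In het 30 lost and 6 gained, beside 7.54% and 19.6%. Pcdhga1 went from 25.4 to 3.81 kb in KO and from 40.9 to 6.24 kb in het, and Pcdhac1 from 10.3 to 20.8 kb in KO. Pcdha genes share their last exons, as do Pcdhg genes, so bodies within each of these sets overlap and their values are not independent. Covered length summed over the members went from 1139 to 829 kb.

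Markers of other testis cells were examined because germ cell preparations can hold somatic cells. Of 8 Sertoli cell genes 4 lost and 0 gained in KO, with covered length going from 19.99 to 4.1 kb, and in het 1 lost and 0 gained. Over all genes 11.9% lost in KO and 7.54% in het. Gata4 went from 9.29 to 2.34 kb in KO and from 3.72 to 3.8 kb in het, and Sox9 from 3.54 to 0 kb in KO and 0 kb at both stages in het. None of 6 Leydig cell genes changed by 1 kb. Of 8 genes of peritubular, endothelial and blood cells 3 gained and 2 lost. Of 8 germ cell markers Ddx4 and Mael lost. H3K9me3 over a gene does not give the level of its RNA, so these values do not measure the makeup of the cells, and the part of any other cell type in the results was not tested.

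Promoter windows were searched in 16457 of the 20560 genes, those with a RefSeq promoter sequence. A promoter counted as marked when at least 50% of a window lay in peaks. In KO 944 genes were marked at E13.5 and 757 at E16.5: 463 (2.81%) lost the mark, 276 (1.68%) gained it and 481 kept it. In het 705 and 814 were marked, with 236 (1.43%) lost and 345 (2.1%) gained. The number of marked promoters was thus lower at E16.5 in KO and higher in het. With peaks of at least 2 kb 252 promoters lost and 244 gained in KO, so the net fall was small under that setting. Of the 463 lost promoters 188 (40.6%) were marked in het at E13.5, and 264 (57.0%) in neither het embryonic list. The loss lasted: 5.18% of them were marked in KO at P0 and 3.67% at P3. Of the gained promoters 79.7% were marked in het at E16.5 and 66.3% in KO at P0.

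Lost and gained promoters differed in sequence. A window held a median of 13 CpGs where the mark was lost (821 windows), 2 where it was gained (548) and 2 where it was kept (841), against 7 over all 31396 windows. At least 10 CpGs were found in 61.02% of lost, 4.38% of gained and 5.59% of kept windows. The 15 lost windows of piRNA and meiosis genes held a median of 20, and the 39 lost windows of developmental factor genes a median of 23. The 110 gained windows of olfactory receptor genes, which made up 39.9% of the genes that gained, held a median of 1.

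**Figure D5:**
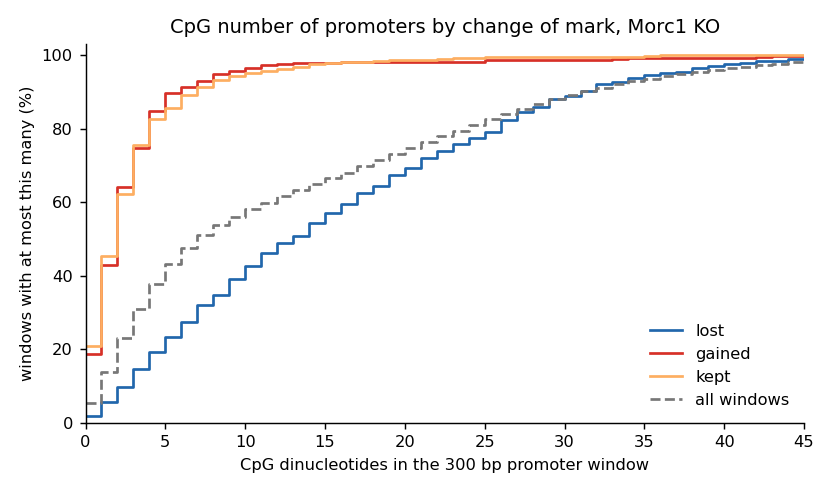
Cumulative percent of promoter windows of 300 bp by the number of CpG dinucleotides they hold, for windows that lost, gained or kept H3K9me3 in KO between E13.5 and E16.5 and for all windows. The lost windows lie to the right of all windows, with a median of 13 CpGs against 7, and the gained and kept windows to the left, with medians of 2.

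2 motifs were searched in the 300 bp windows on both strands: CACGTG, the E-box read by MAX dimers, and TCCCGC, the core of E2F sites, which do not overlap each other. CACGTG was in 10 of the 15 lost windows of the piRNA and meiosis lists (66.7%). It was in 20 of all 63 windows of these lists (31.7%), other genome defence genes included, and in 7.14% of all windows. It was in 10.1% of all windows that lost the mark. TCCCGC was in 6 of the 15 (40%), in 34.9% of all windows of these lists and in 20.2% of all windows. A match describes the letters and does not show a bound site.

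MicroRNA genes changed in small numbers. Of 919 hairpins 17 (1.85%) lost the mark in KO and 20 (2.18%) gained it, against 7 (0.762%) and 23 (2.5%) in het. The clustered hairpins Mir25, Mir93 and Mir106b on chromosome 5 gained it, were marked at E16.5 in both genotypes and were marked in none of the other 6 lists. Mir291b and Mir293, of the cluster expressed in pluripotent cells, lost it, as did Mir9-1, a neural miRNA, and Mir196a-2 of the HoxC cluster. These 4 were marked in the KO E13.5 list only. Mature sequences are shown with the seed, bases 2 to 8, in capitals, to set those with a shared seed side by side.
miR-93-5p: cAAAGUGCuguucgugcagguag
miR-106b-5p: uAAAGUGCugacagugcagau
miR-25-3p: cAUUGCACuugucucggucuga
miR-291b-3p: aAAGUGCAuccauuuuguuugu
miR-293-3p: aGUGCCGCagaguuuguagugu
miR-9-5p: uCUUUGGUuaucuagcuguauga
miR-196a-5p: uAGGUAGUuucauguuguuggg
The first 2 share the seed AAAGUGC, and each of the others has a seed of its own.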

How the data were processed

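H3K9me3 ChIP-seq of Morc1 KO and het germ cells, 4 stages each, was used as 8 deposited peak lists, each giving the chromosome, start and end of every peak as the authors deposited them, with no header, height or score. Per the submitters' processing notes the build was mm10, and bcl2fastq 2.20, cutadapt 1.18, Bowtie2 2.3.4.1, deepTools 3.5.0 and HOMER 4.10 were used. Their roles, the peak calling settings and the read depths are not given in the sources used here. The H3 samples, 16 of the 32, have no peak list of their own among those used. Each list names a stage and genotype and no replicate, so it was taken as pooled. Within every list peaks lay at least 1499 bp apart.

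Positions on 19 autosomes were compared in Python 3.11.15 with NumPy 2.4.6, and Wilson intervals came from SciPy 1.17.1. The interval code and the overlap code were tested on simulated data. Coverage was summed over 20560 protein-coding gene bodies of the RefSeq GRCm38.p6 table, leaving out genes placed on unlocalised scaffolds, and a gene was called gained or lost from a change of 1 kb. Promoter and miRNA sequences came from the RefSeq tables, and coordinates are 1-based. Alternatives were an overlap of 50%, peaks of at least 2 kb, equal numbers of longest peaks, gene bodies with 5 kb flanks, a call from 3 kb, and joining of peaks at most 1 or 3 kb apart. The joining at 3 kb, the promoter settings and the KO to het differences were added after seeing the data.

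Named genes followed a rule: the 6 largest rises and falls in covered gene body, the 4 bodies with the most new and the most gone peaks, the 4 with none at E13.5 and the most at E16.5 and the reverse, genes at the 5 longest new and gone peaks and the 5 largest growths and shrinkages, Morc1, and the 2 largest rises and falls of each gene list. Other genes named in the text were chosen after their values were seen. The members and lists were chosen with earlier results of these data known, and the developmental factor and Wnt lists, the promoter analysis and the sequences shown were chosen after values were seen.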

Additional observations from a re-analysis of the deposited data

Results flagged for a closer look

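Between E13.5 and E16.5, 254 genes lost at least 1 kb in KO and gained at least 1 kb in het, and 41 did the reverse. Of these, 11 were among the genes named by rule or the members of the gene lists, receptor and other large families aside, and in no case was the difference between genotypes tested. Covered length in Alk changed by -76.5 kb in KO and by 34.9 kb in het. In Slc38a9 it changed by -41.8 kb in KO and 1.60 kb in het. Wwox, a very long tumour suppressor gene, changed by -1.41 kb in KO (45.9 to 44.5 kb) and by 23.2 kb in het (29.6 to 52.9 kb), and its KO change became 0.82 kb with peaks of at least 2 kb and 4.58 kb with peaks joined at 3 kb. Psg18, a placental pregnancy-specific glycoprotein gene, changed by -1.997 kb in KO (3.08 to 1.09 kb) and by 1.13 kb in het (0 to 1.13 kb). Among list members, the recombinase gene Dmc1 changed by -4.11 kb in KO and 4.21 kb in het. The piRNA factor genes Tdrd6 and Tdrd9 changed by -1.83 and -2.29 kb in KO and by 4.31 and 2.43 kb in het. Ddc, an imprinted gene of amine synthesis, changed by -1.35 kb in KO and 1.83 kb in het. The developmental factor genes Foxn3, Lmx1a and Tbx15 changed by -3.30, -2.2 and -3.16 kb in KO and by 3.11, 3.30 and 1.30 kb in het.

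The X chromosome was outside the autosomal comparison and held 1832 new KO peaks at E16.5, which is 44.6% of its 4109 KO peaks, against 1953 (48.2%) in het. Covered length on X went from 7.35 to 13.8 Mb in KO, 1.87 times as much, and 10.4% of its E13.5 peaks were gone. In het it rose 2.18 times and 7.87% were gone. The X ratio was above that of the autosomes in both genotypes, and the difference was not tested.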

How the results depend on the processing

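No paired analysis was possible because the peak lists carry no replicate number, and for the same reason no replicate could be left out. Of 110 values of the main results recomputed under another setting 73 moved little, 37 moved and 0 changed sign. Moving little meant staying within 1.5-fold for counts and differences, and inside the main Wilson interval for shares. Counts and shares cannot change sign, so only the KO minus het differences could have. With equal numbers of longest peaks the order of gained and lost genes turned (2514 and 2981), though each count moved little. An overlap of 50% of the peak gave 37255 new KO peaks. With it, 24.7% of new and 44.5% of gone peaks lay in gene bodies, and 1.37% of new peaks at promoters. Of these new peaks 87.2% were called in het at E16.5. With peaks of at least 2 kb there were 17754 new, 3111 gone and 23524 kept E13.5 peaks, and 16414 longer and 5893 shorter blocks. Of the 105 Mb covered at E16.5 only, 42.4 Mb was then inside kept peaks, so the larger part was in new peaks. New peaks were then in gene bodies in 22.8% and at promoters in 1.73%, gone peaks in 43.3% and 9.42%. New peaks were called in het E16.5 in 90.1% and in KO P0 in 80.0%, gone peaks in 21.2% and 26.9%. With this minimum 1216 genes and 252 promoters lost, and KO exceeded het by 578 lost genes. With equal numbers of longest peaks from both KO lists there were 15873 new peaks, with 24.9% in gene bodies and 1.29% at promoters, against 43.2% and 4.62% of gone peaks. New peaks were called in het E16.5 in 80.6% and in KO P0 in 63.6%, gone peaks in 12.5% and 13.3%. With all 4 KO and het lists reduced to 1 common number, KO minus het was -2.09 percentage points for new and 0.960 for gone peaks, -376 genes gained and 489 genes lost. Joining peaks at most 3 kb apart put 75.1% of new peaks in KO P0. Joining at 1 kb changed nothing by construction, since no gap was under 1499 bp. A call from 3 kb left 1381 gained and 513 lost genes.

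Of 556 values of the 139 named genes 463 moved little, 85 moved and 8 changed sign. With peaks of at least 2 kb the change was 2.16 kb for Gm6098 and 0.82 kb for Wwox. With 5 kb flanks it was 3.69 kb for Gm6098 and 0.264 kb for Defb36. Joining at 3 kb gave Wwox 4.58 kb. Equal numbers gave Asz1 -0.322, Wnt2 -1.001 and Wnt7a -0.044 kb. Of 165 values of 33 lists 2 changed sign: gained minus lost became 11 for Zfp genes with peaks of at least 2 kb and 2 for Klr genes with a call from 3 kb. Without read depth, how far peak number and length follow sequencing cannot be told from these lists.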

Other observations

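Further gene families were examined in the KO lists, in which 15.8% of all genes gained and 11.9% lost. Zfp genes, which encode zinc finger proteins and include clusters long known to carry H3K9me3, had 58 gained and 71 lost of 391. UDP glucuronosyltransferase genes, whose enzymes conjugate drugs and steroids, had 12 gained and 0 lost of 22, and Ugt2b34 went from 0 to 7 kb. The body of Ugt1a10 is 165 kb long. Overlap between bodies of this family was not examined, so their counts may not be independent. Serpin genes, protease inhibitors that lie in clusters, had 13 gained and 4 lost of 62. Cytochrome P450 genes had 28 gained and 19 lost of 101, and Klr genes, lectin-like receptors of natural killer cells, had 6 gained and 8 lost of 27. Skint genes had 3 gained and 5 lost of 11.

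Chromosomes differed. Covered length at E16.5 over that at E13.5 ran from 1.178 on chromosome 7 to 1.65 on chromosome 14 in KO. The share of gone peaks ran from 13.1% on chromosome 3 to 24.8% on chromosome 11. The share of new peaks ran from 34.8% on chromosome 17 to 41.5% on chromosome 2. Peaks on Y numbered 54 at E13.5 and 46 at E16.5 in KO, and 47 and 41 in het.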
